A study of Mus musculus with 6 samples.

Results

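The 10 genes of the FOXO and phosphoinositide 3-kinase (PI3K) axis described here were read in leukemias of the T-ALL type (T-cell acute lymphoblastic leukemia) from mice, with Hes1 intact or deleted. They were Foxo1, Foxo3, Pik3ip1, Irs2, Sgk1, Klf2, Txnip, Bcl6, Inpp5d and Pik3cd. They were taken by gene symbol from the array's annotation, which names 19057 genes, and all 16 of their probes were read. Of these 10 genes, 9 were detected well enough to be tested, among 8836 named genes tested in all. Klf2 was the gene left out, because its probe was detected on 0 of 6 arrays.

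The leukemias arose from lineage-depleted bone marrow that had been given ΔE-NOTCH1, an activated NOTCH1, by retrovirus and transplanted into lethally irradiated NRG mice, hosts that lack their own mature lymphocytes. All samples carried ΔE-NOTCH1, the Rosa26 Cre-ERT2 allele and Hes1flox/flox, so Cre sat in every cell that expresses the broadly active Rosa26 locus. The 3 control samples (WT) had ethanol for 36 hours, and the 3 deleted samples (KO, Hes1-/-) had 4-hydroxy-tamoxifen for 36 hours, which switches Cre-ERT2 on. Whether the triplicates are separate leukemias, mice or cultures is not given, and p-values therefore cover only how far these 6 samples vary, which may be technical. Tamoxifen injection of mice is also described, and whether the RNA came from cultured cells or from mice is not given. No sample had the drug with Hes1 kept, and for every gene below Hes1 loss and drug or Cre exposure cannot be told apart.

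FOXO proteins are forkhead transcription factors that enter the nucleus when PI3K signalling is low. PI3K makes a membrane lipid that recruits AKT, and AKT and its relative SGK1 phosphorylate FOXO proteins, which then leave the nucleus. In lymphocytes nuclear FOXO1 switches on genes of quiescence, homing and survival, among them Klf2 and Il7r, and in many tissues FOXO proteins also raise Irs2, an adaptor that feeds back into PI3K. HES1 is a repressor that binds N box and class C sites in DNA.

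Of the 10 genes, Sgk1 and Bcl6 had lower values after Hes1 deletion and Irs2 a higher one, while Foxo1 and Foxo3 themselves differed little in mean and overlapped between the groups. Sgk1 was 1.66-fold lower in KO, Bcl6 1.44-fold lower and Irs2 1.30-fold higher. The genes did not move in a single direction: 5 of the 9 tested had higher and 4 had lower means in KO. Over all features 49.5% had lower means in KO. None of the 9 passed an adjusted p of 0.05 in limma (0), where 0.0623% of all 11241 features passed. At an unadjusted p under 0.05, 2 of 9 were lower beside 4.27% of all features, and 1 of 9 was higher beside 5.00%.

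The arrays held 45281 probes each. The median intensity per probe lay between 133.8 and 153.5 units over the 6 arrays. Every KO array was dimmer by mean intensity than every WT array, at 519.7, 630.5 and 687.1 units on KO replicates 1 to 3. The WT arrays had 702.7 to 713.3 units, and KO replicate 1 was the dimmest of all. Hes1, the deleted gene, was at least 53.5-fold lower in KO, where 0 of 3 arrays detected it and all 3 WT arrays did. The T-lineage label was borne out by 10 of 14 T-lineage markers detected on all 6 arrays, while Cd8a, Cd5 and Cd7 were detected on 0 arrays and Cd4 on 2. Of 4 B-lineage, 7 myeloid, 3 erythroid and 4 NK markers 0 were detected on all arrays, and of 5 stromal and endothelial markers 1 was, Pecam1, which leukocytes also express, while Col1a1 and Col3a1 were detected on 0. The summed linear level of the stromal and endothelial list ran from 725 to 899.5 in WT and from 956 to 1296 in KO. Pecam1 made up most of this sum, at mean log2 intensities of 9.40 in WT and 9.93 in KO. Kdr, the other tested gene of this list, had means of 5.39 in WT and 5.26 in KO. The myeloid sum ran from 181.7 to 182.3 in WT and from 196 to 228 in KO. Of the myeloid genes 5 were detected on 0 arrays. The NK list had lower sums in KO, from 115.3 to 122.4 in WT and from 105.0 to 113.5 in KO. By any probe, 2 of its 4 genes were detected on 0 arrays. The T-lineage, B-lineage and erythroid sums overlapped. The part of these shifts in the values below was not tested. In such bulk RNA, fewer cells of a type and less RNA per cell cannot be told apart.

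Values below are normalised log2 intensities, in which 1 unit is a doubling, and a change is the KO mean minus the WT mean with its standard error (SE) and its 95% interval. The transcription factor genes come first. Foxo1, the main FOXO factor of T cells, measured 8.71, 8.13 and 8.47 on WT replicates 1 to 3 and 8.35, 8.30 and 8.60 on KO replicates 1 to 3. The WT arrays alone spanned more than the KO arrays, and the groups overlapped. The means were 8.44 ± 0.29 in WT and 8.41 ± 0.16 in KO (SD, n = 3 each), a change of -0.023 ± 0.17 (SE), for which limma gave an adjusted p of 0.973. The interval ran from -0.42 to 0.37, so changes of up to 1.33-fold lower or 1.29-fold higher lay within it. A second Foxo1 probe was detected on 0 arrays.

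Foxo3, which encodes a second FOXO factor active in lymphoid cells, measured 7.82, 7.71 and 7.40 in WT and 7.31, 7.72 and 7.68 in KO. Its lowest value was on KO replicate 1, and the other KO arrays lay inside the WT range. The change was -0.074 ± 0.16 (SE), with an interval from -0.45 to 0.31 and a limma adjusted p of 0.903. Of its other probes one was detected on 0 arrays and the other on 1. Foxo4 and Foxo6, the remaining family members, were detected on 0 arrays, so Foxo1 and Foxo3 were the FOXO genes that these arrays could read.

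Sgk1 encodes the serum- and glucocorticoid-regulated kinase, which like AKT acts downstream of PI3K and phosphorylates FOXO proteins. It measured 9.22, 9.31 and 9.32 on WT replicates 1 to 3 and 8.34, 8.67 and 8.64 on KO replicates 1 to 3. All 3 KO arrays lay below all 3 WT arrays, and KO replicate 1 was the lowest. The means were 9.29 ± 0.05 in WT and 8.55 ± 0.18 in KO (SD, n = 3 each), a change of -0.73 ± 0.12 (SE) with an interval from -1.03 to -0.44, or 1.36-fold to 2.04-fold lower. Its limma adjusted p over all features was 0.136, so it did not pass, although by unadjusted p it ranked 31st of the 8836 named genes tested, and 1.45% of all features had a larger change in either direction. The separation was already present in the intensities as deposited, which were 783, 821 and 812 units in WT and 358, 503 and 558 in KO. Deposited values are not adjusted for the lower mean intensity of every KO array. Inpp5d was also lower on every KO array as deposited, although its normalised change was 0.15.

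**Figure D1:**
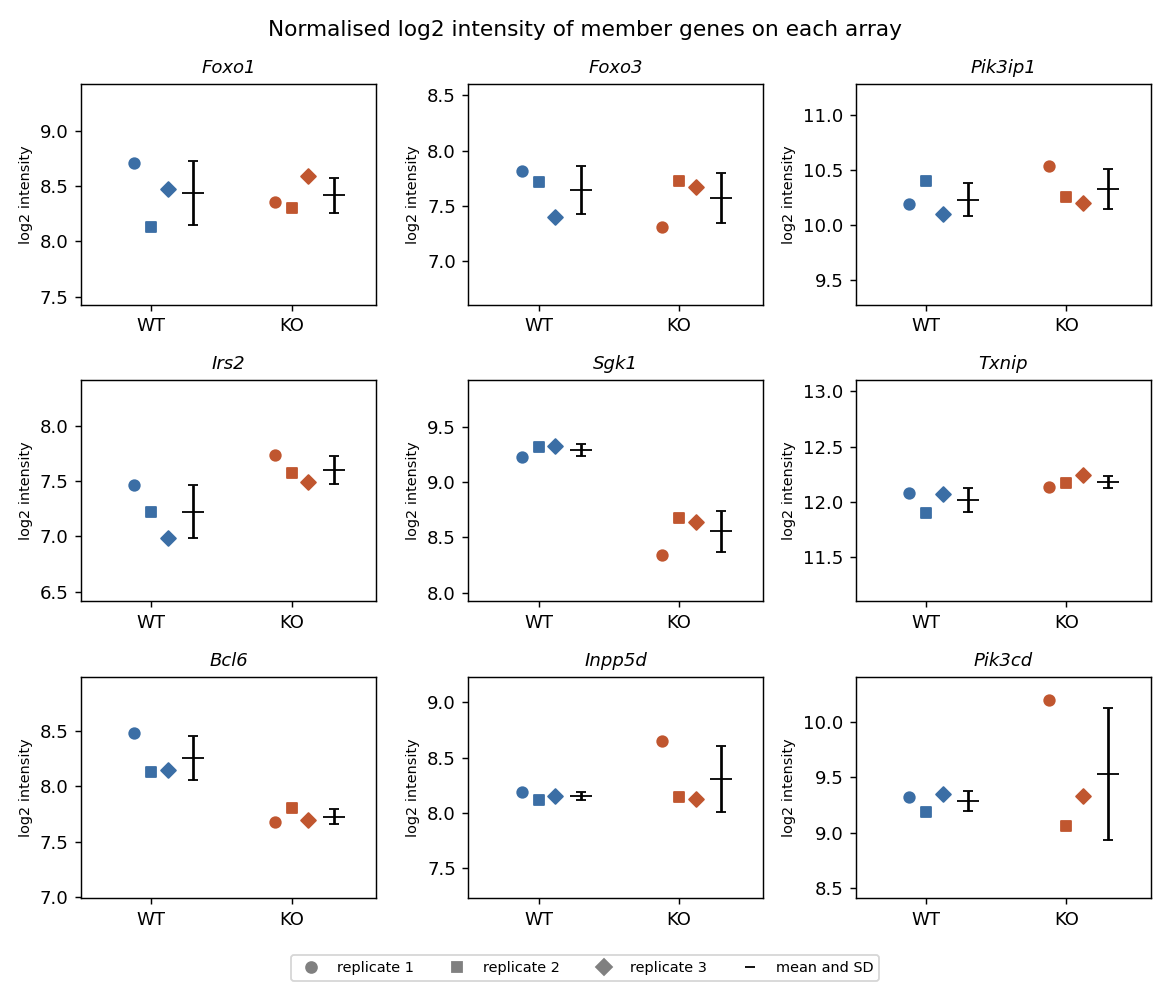
Normalised log2 intensity (vertical axes, each spanning 2 log2 units) of the 9 tested genes on each array, with WT in blue, KO in orange, a symbol for each replicate, and bars for the mean and SD of 3 arrays. The KO values of Sgk1 and Bcl6 lie below all WT values, those of Irs2 and Txnip lie above them, though not with median scaling, and KO replicate 1 stands apart in Pik3cd and Inpp5d.

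The call on Sgk1 moved with the processing. It passed an adjusted p of 0.05 in 4 of 11 other settings that kept all arrays: without background correction (-0.58, adjusted p 0.0442), with the authors' deposited log2 values (-0.58, 0.0443), with array weights (-0.67, 0.0251) and with a trended robust prior (-0.73, 0.0476). In that order 36, 36, 119 and 47 of all 11241 features passed in these 4 settings, against 7 as reported. Over the 11 settings the limma adjusted p ran from 0.0251 to 0.372, and it was 0.372 with a replicate block. Leaving out single arrays kept the change between -0.79 and -0.63, with KO replicate 1 the array whose absence brought it closest to 0.

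The RefSeq promoter table (GRCm38.p6) held windows for all 10 genes, 18 windows in all, each from 250 bases before to 50 bases after an annotated start. They were searched on both strands for the FOXO element GTAAACA and for the HES1-type sites CACNAG (N box) and CACGCG (class C site). An N box was found in 10 of the 18 windows and in 42.5% of all 32851 windows, a class C site in 3 of the 18 and in 9.27% of all, and a FOXO element in 1 of the 18 and in 3.65% of all. The 3 motifs share no matched position in the windows printed. A match is a description of the letters and not evidence of binding. Of the 6 Sgk1 windows 3 held an N box, and 0 held either of the other motifs. The Sgk1 window with its N box nearest the start is shown because Sgk1 had the largest change among the genes, with the N box in capitals 44 bases after the start (chr10:21993640-21993939, plus strand, GRCm38.p6).
Sgk1: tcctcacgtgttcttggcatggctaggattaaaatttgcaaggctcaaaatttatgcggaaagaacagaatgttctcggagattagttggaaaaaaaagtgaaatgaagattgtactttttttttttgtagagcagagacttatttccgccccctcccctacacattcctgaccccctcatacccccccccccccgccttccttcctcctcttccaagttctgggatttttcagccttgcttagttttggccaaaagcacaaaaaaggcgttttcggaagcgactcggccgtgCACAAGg

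Bcl6 encodes a zinc finger repressor of lymphocyte differentiation, and FOXO proteins are known to raise it in several blood cell types. It measured 8.48, 8.13 and 8.15 in WT and 7.68, 7.80 and 7.70 in KO. The groups did not overlap, the KO arrays were close together, and WT replicate 1 stood above the other WT arrays. The means were 8.25 ± 0.20 in WT and 7.72 ± 0.07 in KO (SD, n = 3 each), a change of -0.53 ± 0.13 (SE), with an interval from -0.83 to -0.23. The limma adjusted p was 0.289, and it stayed between 0.0938 and 0.491 over the 11 other settings that kept all arrays. Without WT replicate 1 the change was -0.42, the smallest of the 6 fits that left out 1 array. The intensities as deposited were 516, 434 and 431 units in WT and 269, 332 and 351 in KO, again without overlap. As for Sgk1, these are not adjusted for the dimmer KO arrays.

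Of the 2 Bcl6 windows 1 held an N box, printed here in capitals because Bcl6 was, beside Sgk1, the gene whose KO arrays all lay below the WT arrays (chr16:23981234-23981533, minus strand, GRCm38.p6). It begins 58 bases before the start and reads on the opposite strand. The other Bcl6 window held 0 matches to the 3 motifs.
Bcl6: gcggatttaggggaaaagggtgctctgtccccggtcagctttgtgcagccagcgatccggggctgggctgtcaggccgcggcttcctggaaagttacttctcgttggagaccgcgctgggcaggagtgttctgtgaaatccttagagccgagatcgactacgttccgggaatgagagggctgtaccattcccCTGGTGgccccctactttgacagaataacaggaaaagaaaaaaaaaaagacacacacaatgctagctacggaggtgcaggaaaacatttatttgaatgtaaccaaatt

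Irs2 encodes an adaptor that links insulin, IGF and cytokine receptors to PI3K and is a textbook FOXO target in liver. It measured 7.46, 7.23 and 6.98 in WT and 7.74, 7.57 and 7.49 in KO. The lowest KO value lay just above the highest WT value, so the groups nearly touched. The change was 0.38 ± 0.15 (SE), with an interval from 0.031 to 0.73 and a limma adjusted p of 0.492. Unlike for Sgk1 and Bcl6, the separation was not present in the intensities as deposited, which were 316, 289 and 261 units in WT and 276, 302 and 322 in KO and overlapped. Those values too are not adjusted for the lower mean intensity of every KO array. Under median scaling, an alternative to quantile normalisation, the change was 0.216 and the groups overlapped. Under cyclic loess, a further alternative, the change was 0.389 and the groups did not overlap. Over the 6 fits without 1 array it ran from 0.26 to 0.50, and its unadjusted p was under 0.05 in 2 of them, without WT replicate 1 and without KO replicate 3. Its promoter window held 0 matches to the 3 motifs.

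**Figure D2:**
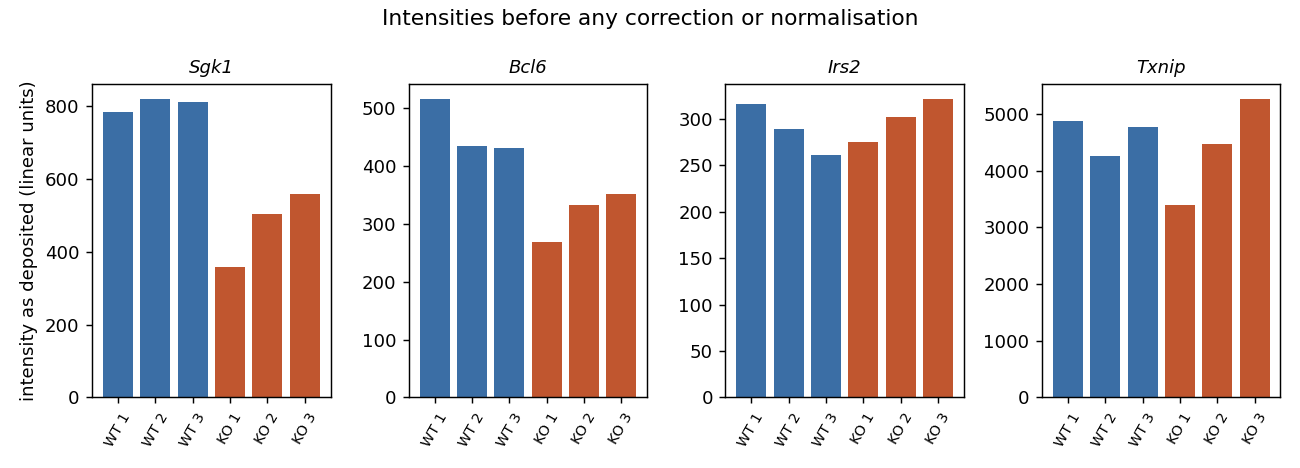
Intensity as deposited, in linear units on axes that start at 0, of Sgk1, Bcl6, Irs2 and Txnip on each WT (blue) and KO (orange) array. For Sgk1 every KO bar (358 to 558) is under every WT bar (783 to 821), and for Irs2 and Txnip the groups overlap at this stage. Every KO array had a lower mean intensity than every WT array.

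Txnip encodes thioredoxin-interacting protein, an arrestin-fold protein that restrains glucose uptake and that FOXO proteins and the glucose sensor MondoA are known to regulate. It measured 12.08, 11.90 and 12.07 in WT and 12.13, 12.17 and 12.24 in KO. The KO values lay above the WT values but the gap between the groups was small. As reported the change was 0.17 ± 0.11 (SE), with an interval from -0.087 to 0.42 and a limma adjusted p of 0.661. With median scaling the groups overlapped and the change was -0.042, where the median of all features was -0.17. A second Txnip probe, annotated to another transcript, gave 0.098 ± 0.11. As deposited, the intensities were 4880.3, 4268 and 4769 units in WT and 3398, 4467 and 5274 in KO, with the lowest and the highest value both in KO.

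Txnip had the single FOXO element among the 18 windows, and its window also held 2 N boxes and 2 class C sites. It is shown with all 5 matches in capitals (chr3:96557707-96558006, plus strand, GRCm38.p6). The FOXO element begins 121 bases before the start, the class C sites 160 and 52 bases before it, the nearer one on the opposite strand, and the N boxes 85 and 74 bases before it.
Txnip: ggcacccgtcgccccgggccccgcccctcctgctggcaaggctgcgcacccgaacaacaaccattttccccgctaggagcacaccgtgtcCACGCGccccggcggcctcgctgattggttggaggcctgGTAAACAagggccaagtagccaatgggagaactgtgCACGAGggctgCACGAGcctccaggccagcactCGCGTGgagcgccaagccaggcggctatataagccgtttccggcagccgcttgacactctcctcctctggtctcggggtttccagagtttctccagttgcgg

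Klf2 encodes a zinc finger factor that keeps T cells quiescent and drives the egress receptor gene S1pr1. Its single probe read 140.9, 162.3 and 154.6 units in WT and 145.1, 138.7 and 160.8 in KO, and the detection p ran from 0.0502 to 0.546. These values lay among those of undetected probes, whose median was between 126.6 and 144.1 units on the 6 arrays, so no fold is given. S1pr1 was likewise detected on 0 arrays.

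The remaining genes act on PI3K itself. Pik3ip1 encodes a transmembrane protein that binds and inhibits PI3K in T cells. It measured 10.20, 10.39 and 10.10 in WT and 10.54, 10.26 and 10.20 in KO, with overlap between the groups. The change was 0.10 ± 0.14 (SE), with an interval from -0.22 to 0.42 and a limma adjusted p of 0.835. Its sign was not kept without KO replicate 1 (-0.0031) or with median scaling (-0.10). With median scaling the median of all features was -0.17.

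Inpp5d encodes SHIP1, a phosphatase that removes a phosphate from the PI3K lipid product in blood cells. It measured 8.19, 8.12 and 8.15 in WT and 8.65, 8.14 and 8.13 in KO. KO replicate 1 was the only KO array above the WT range. The change was 0.15 ± 0.16 (SE), limma adjusted p 0.766, and it was -0.018 without KO replicate 1. With median scaling, where the median of all features was -0.17, it was -0.035. As deposited, its intensities were lower in KO on every array, at 441, 432 and 432 units in WT and 415, 387 and 430 in KO.

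Pik3cd encodes p110δ, the leukocyte catalytic subunit of PI3K. Its brightest probe measured 9.32, 9.18 and 9.35 in WT and 10.20, 9.06 and 9.33 in KO. The WT arrays agreed within 0.088 (SD, n = 3), whereas the KO arrays spread by 0.60 (SD, n = 3) around a high KO replicate 1. The change was 0.24 ± 0.27 (SE) with an interval from -0.39 to 0.88 and a limma adjusted p of 0.784, and without KO replicate 1 it was -0.090. A second detected Pik3cd probe gave -0.097 ± 0.19, with KO replicate 1 again the highest array at 7.45, and the third was detected on 0 arrays. The probes of this gene thus disagreed in sign within their error.

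**Figure D3:**
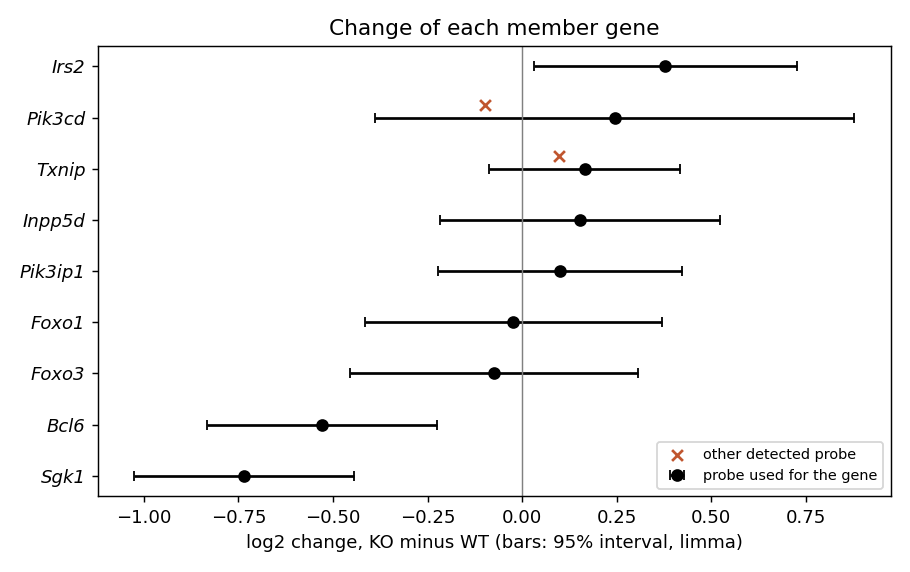
Log2 change, KO minus WT, of each tested gene (points) with its 95% interval from limma (bars), and the change of a second detected probe of Txnip and Pik3cd (crosses). The intervals of Sgk1 (-1.03 to -0.44), Bcl6 (-0.83 to -0.23) and Irs2 (0.031 to 0.73) do not include 0, and the other 6 do; none passed after adjustment over all features.

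Across the 9 tested genes the median change was 0.10, beside 0.0026 over all 11241 features. The groups did not overlap in 4 genes: Sgk1 and Bcl6 were lower in KO, beside 7.69% of all features, and Irs2 and Txnip were higher, beside 8.49%. With median scaling the median of all features moved to -0.17 and only Sgk1 and Bcl6 remained without overlap, at -0.75 and -0.54 relative to that median. On the same relative scale Irs2 stood at 0.39, Pik3cd at 0.21, Inpp5d at 0.14, Txnip at 0.13, Pik3ip1 at 0.070, Foxo1 at -0.039 and Foxo3 at -0.072. Sgk1 and Bcl6 did not overlap between the groups in any of the 11 settings with all arrays or of the 6 fits without 1 array. For these genes the changes of filter, probe rule, design, weights and variance prior kept the same normalised values, so they could not show overlap. Leaving out an array could show it only through renormalisation. Only the changes of background correction and normalisation and the authors' values could otherwise have shown it. KO replicate 1 was the highest KO array for 4 of the 9 genes and the lowest for 4, so its position was not shared among them. WT replicate 1 was the highest WT array for 6 of the 9 and the lowest for 1, and WT replicate 2 was the lowest for 5.

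Among the genes taken here as FOXO targets, Irs2, Txnip and Pik3ip1 had higher means in KO, Bcl6 a lower one and Klf2 no reading. With median scaling Txnip (-0.042) and Pik3ip1 (-0.10) also had lower means, but the median of all features was then -0.17. Relative to that median Txnip stood at 0.13 and Pik3ip1 at 0.070. Of the FOXO targets only Bcl6 and Irs2 had an unadjusted limma p under 0.05, and they lay in opposite directions. A wider list of 32 further FOXO target and lymphocyte quiescence genes had 25 tested members. Of these 16 had higher and 9 lower values in KO, with a median of 0.057, where 49.5% of all features were lower. Past the adjusted threshold were 0, beside 0.0623% of all features. At an unadjusted p under 0.05 in limma 3 were higher and 0 lower, beside 5.00% and 4.27% of all features. The same shares stand beside the counts of the lists below. Those 3 were the apoptosis gene Bbc3 (0.86 ± 0.12, SE, adjusted p 0.0843 in limma; a second probe 0.050), the interleukin-7 receptor gene Il7r (0.65 ± 0.10, adjusted p 0.109; its other probes 0.38 to 0.80) and the stress gene Sesn1 (0.30 ± 0.11; its other probes -0.19 and 0.18). Next by p was Cited2, a transcriptional co-regulator gene, at -0.31 ± 0.14, with other probes at -0.17 and -0.72.

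The other PI3K subunit genes had 7 tested members, 6 with higher and 1 with lower values and a median of 0.14. The regulatory subunit gene Pik3r3 measured 0.48 ± 0.11 (SE), with a second probe at 0.47, and the catalytic subunit gene Pik3ca -0.30 ± 0.12. At an unadjusted p under 0.05 these were the 2 of the list, 1 in each direction, and next by p were the regulatory subunit genes Pik3r1 (0.22 ± 0.15) and Pik3r2 (0.25 ± 0.20). Of 17 tested brakes on PI3K, AKT and mTORC1, 7 had higher and 10 lower values, with a median of -0.051. At that p 2 were higher and 2 lower, beside 5.00% and 4.27% of all features. Trib3, a pseudokinase described as an AKT inhibitor, measured -0.94 ± 0.14 (other probes -1.06 and -0.88) and the mTOR inhibitor gene Deptor -0.31 ± 0.11, while the GTPase-activating protein gene Dab2ip measured 0.75 ± 0.15 and the adaptor gene Dok2 0.53 ± 0.11. The brakes therefore had no common direction.

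Downstream, 16 AKT, mTOR and substrate genes were tested, 9 higher and 7 lower with a median of 0.058. Eif4ebp1, which encodes a brake on translation that mTORC1 inactivates, measured -0.79 ± 0.12 (SE), the SGK1 substrate gene Ndrg1 -0.39 ± 0.13 and the mTORC1 scaffold gene Rptor 0.35 ± 0.12, with the AKT substrate gene Gsk3b next at 0.27 ± 0.14 and its second probe at -0.023. Akt1 and Akt2 were detected on 0 arrays, so these arrays could not read them, which does not show that they were absent. Of 10 receptors and adaptors upstream of PI3K, 8 had higher values and 2 lower, with a median of 0.094, and the 1 gene at an unadjusted p under 0.05 was the costimulatory receptor gene Cd28 (-0.56 ± 0.17). Next by p were the adaptor gene Grb2, the stem cell factor receptor gene Kit and the ubiquitin ligase gene Cbl, between 0.21 and 0.29, and a second Kit probe measured -0.22. Around Txnip, 4 of 9 genes had higher and 5 lower values, with a median of -0.078, and the glucose transporter genes Slc2a1 (-1.04 ± 0.19) and Slc2a3 (-0.35 ± 0.12) were the 2 at that p, followed by the thioredoxin gene Txn1 (-0.48 ± 0.26, second probe 0.077) and the arrestin family gene Arrdc1 (0.28 ± 0.18).

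Sgk1 and Txnip are also known to be induced by glucocorticoids. Of 6 tested steroid-induced genes 4 had higher and 2 lower values, with a median of 0.067 and 0 at an unadjusted p under 0.05 in limma. The phosphatase gene Dusp1 had the smallest p and the largest change of the list, at -0.26 ± 0.12 (SE) with a limma adjusted p of 0.580. Tsc22d3, which encodes the glucocorticoid-induced leucine zipper, measured -0.20 ± 0.11 (SE), and its second probe, not the one counted, measured -0.35 at an unadjusted limma p of 0.0439. Fkbp5, a steroid receptor co-chaperone gene, measured 0.15 ± 0.10 and the clock gene Per1 0.20 ± 0.15, with a second probe at 0.28. Of 3 tested BCL6 corepressor genes all 3 had higher values, with a median of 0.23, and Bcor measured 0.44 ± 0.15 with a second probe at 0.53, Hdac7 0.23 and Sirt1 0.15. Together the lists held 131 further genes, of which 93 were tested. At an unadjusted p under 0.05, 8 were higher and 8 were lower, 8.60% in each direction, beside the 5.00% and 4.27% of all features.

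**Figure D4:**
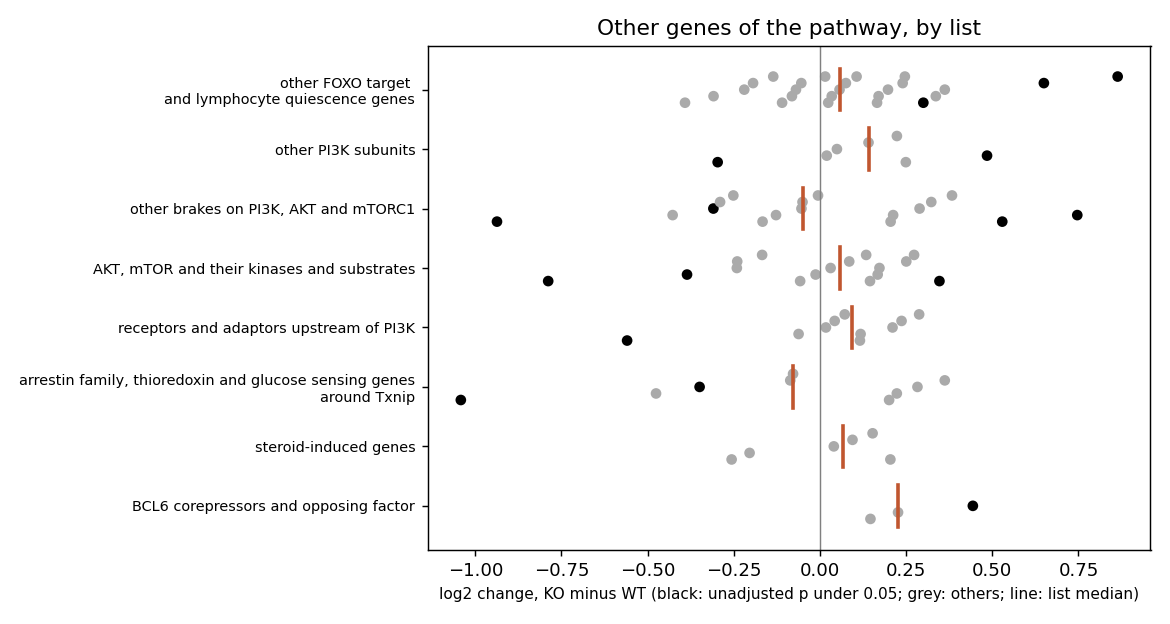
Log2 change, KO minus WT, of the other tested genes of the pathway, a point for each gene and a row for each list, with genes at an unadjusted p under 0.05 in black and the list median as a line. Points lie on both sides of 0 in 7 of the 8 lists with tested genes, with Slc2a1 (-1.04) and Trib3 (-0.94) the lowest and Bbc3 (0.86) the highest.

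For the 3 genes with the smallest p, the named genes with the most similar values over the 6 arrays were found by the root-mean-square difference between their log2 values after each gene's own mean was subtracted. Nearest to Sgk1 were Eif4ebp1 (difference 0.075), the actin-binding thymosin gene Tmsb4x (0.077) and Ifit1bl1 (0.085). Near to Bcl6 were Rasl11b (0.084) and Klhdc1 (0.099). The other 2 Klhdc1 probes changed by -0.13 and 0.11 and did not follow the one used. Nearest to Irs2 were Timm17b (0.046), Prkdc (0.060), which encodes the catalytic subunit of DNA-dependent protein kinase, and Styxl1 (0.062), and the other Prkdc probe changed by -0.11. These likenesses are descriptions over 6 arrays drawn from 8836 genes.

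**Figure D5:**
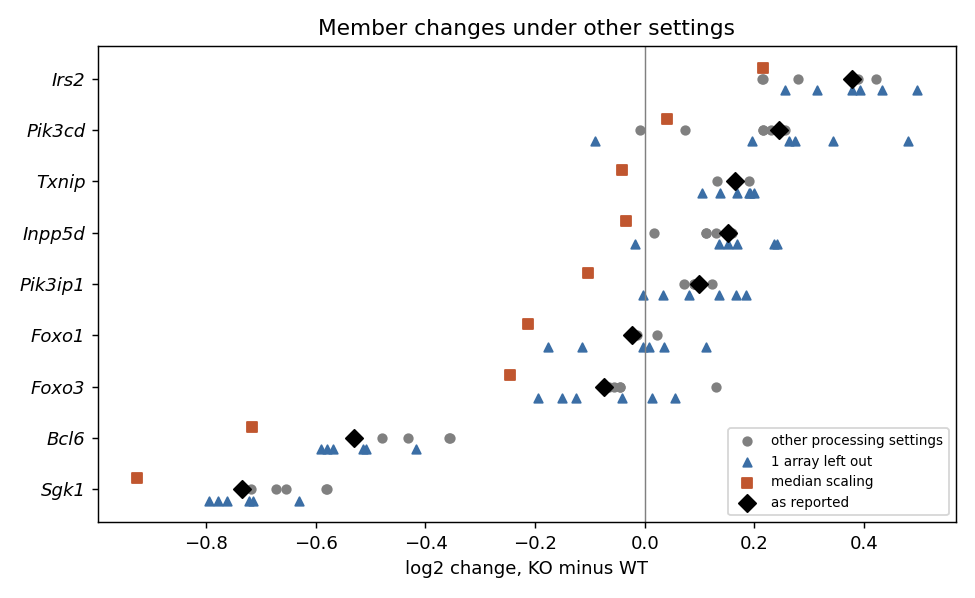
Log2 change, KO minus WT, of the 9 tested genes as reported (diamonds), under other processing settings (grey), with median scaling (squares) and with 1 array left out (triangles). Sgk1 (-0.93 to -0.58) and Bcl6 (-0.72 to -0.36) stay under 0 in all of the settings with every array, Irs2 stays above 0 (0.215 to 0.42), and the other genes lie on both sides.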

How the data were processed

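Total RNA from 3 WT and 3 KO samples, grouped by the sample titles, was amplified from 10 ng and biotin-labelled, per the labels' protocols. The deposited table gave an intensity on a linear scale and a detection p-value for each probe, per the file headers, with no background subtraction or normalisation. A second deposited table held the authors' log2 values, which equalled quantile-normalised log2 intensities within 0.00443 (median 7.20, uncentred). The scanner, its software and the genome build are not given in the labels or headers, and the files give no slide or scan date. There were 0 columns of other samples.

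Intensities were processed with neqc (offset 16, quantile normalisation, log2) in limma 3.58.1 under R 4.3.3. Probes detected at p under 0.05 on at least 3 arrays were kept (16287). The probe with the highest mean stood for each gene, giving 8836 named genes and 2405 unnamed probes. Of 45281 probes, 34885 had 1 symbol, 18 several and 10378 none here. KO was compared with WT by lmFit and eBayes, and p-values were adjusted by Benjamini-Hochberg over all 11241 features, and the steps were tested on simulated data. Promoters are RefSeq's (GRCm38.p6).

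The genes and the 9 lists were chosen with earlier results of these data known, so no list is independent evidence. Named were Hes1, all 10 genes, up to 4 genes of each list by smallest p, and the 3 nearest profiles of the 3 genes with the smallest p, of which 1 is not reported here. S1pr1, Foxo4, Foxo6, Akt1 and Akt2 were named after their values were seen. Alternatives changed the background correction, normalisation, filter, probe rule, design, weights, variance prior, threshold and arrays kept.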

Additional observations from a re-analysis of the deposited data

How the results depend on the processing

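The number of the 9 tested genes past an adjusted p of 0.05 was 0 as reported and in the 6 fits without 1 array, 0 at an adjusted p under 0.1, and 1 (Sgk1) without background correction, with the authors' values, with array weights and with the trended prior. More features passed in all in these settings, 36, 36, 119 and 47 of 11241, against 7 as reported. The 2 genes lower at an unadjusted p under 0.05 were 2 in all settings. The 1 higher gene became 0 with median scaling and with the trended prior and ran from 0 to 1 without single arrays. It was 0 without WT replicate 2, WT replicate 3, KO replicate 1 or KO replicate 2. The 4 genes without overlap became 2 with median scaling and ran from 4 to 5 without single arrays. The sign turned for Foxo1 (0.022) and Foxo3 (0.13) and Pik3cd (-0.0091) with array weights, for Pik3ip1 (-0.10), Txnip (-0.042) and Inpp5d (-0.035) with median scaling, and for Pik3cd with its second probe (-0.097). Without single arrays Foxo1 ran from -0.18 to 0.11, Foxo3 from -0.19 to 0.056, Pik3ip1 from -0.0031 to 0.18, Inpp5d from -0.018 to 0.24 and Pik3cd from -0.090 to 0.48. With median scaling the median of all features was -0.17. Relative to that median Pik3ip1 stood at 0.070, Txnip at 0.13 and Inpp5d at 0.14, so they kept their sign on that scale. The cause of the shifts between settings was not tested.

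No consistent pairing by replicate number was seen: deviations from the group means of same-numbered arrays correlated at -0.098, -0.27 and 0.15 across features, and WT replicate 1 correlated better with KO replicate 2 (0.16). These correlations cannot decide whether the samples were paired, because deviations in a group of 3 sum to 0 and so depend on each other. With a replicate block 0 of the 9 genes passed, as without it, and 2 features passed in all, against 7. Irs2, at 261 to 322 units, and Foxo3, at 236 to 370 units, lay nearest to the brightest undetected probes (145.2 to 169.1 units by array), and 3 arrays per group limit the precision of every value.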
